A study of Mus musculus with 34 samples.

Results

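T, Eomes, Mixl1, Gsc and Evx1 are 5 transcription factor genes that mark the primitive streak, the furrow of the early mouse embryo through which epiblast cells leave to form mesoderm and endoderm. They were taken by name from the deposited count tables, and all 5 were found among the 53655 genes of both tables. Their levels were followed in mouse epiblast stem cells (EpiSC), a primed pluripotent state that resembles the epiblast on the eve of streak formation, and in definitive endoderm (DE) made from EpiSC. The values are CPM, the count of a gene per M (mega) counts of its library. They come from 34 libraries, 17 of EpiSC and 17 of DE, from lines of 7 inbred mouse strains.

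In the embryo, Wnt and Nodal signals at the posterior epiblast switch on T and Eomes, and graded Nodal activity then sorts cells along the streak. High Nodal activity favours the anterior streak, where Gsc is made and from which definitive endoderm arises, while posterior streak cells make T and Evx1 and form mesoderm. Eomes and Mixl1 are both needed in the mouse for definitive endoderm.

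The EpiSC were derived from embryonic stem cells and kept on irradiated mouse embryonic fibroblasts in FGF, activin A (a stand-in for Nodal) and a tankyrase inhibitor that damps Wnt signalling. For DE they were given CHIR, a GSK3 inhibitor that turns on Wnt signalling, at 3 uM with activin A at 40 ng/mL for 16 h. A further 24 h in activin A (100 ng/mL) followed, with LDN-193189, which blocks BMP receptors, at 100 nM, and cells carrying CXCR4 were then taken with magnetic beads, 40 h after CHIR was first added. C57BL/6J gave 5 lines in each state, and NOD/ShiLtJ, NZO/HiLtJ and WSB/EiJ gave 2 each in both. PWK/PhJ gave 3 EpiSC and 4 DE libraries, CAST/EiJ 2 and 1, and DBA/2J 1 of each. Both states were sequenced in 16 lines. Groups of 1 line (DBA/2J in both states, CAST/EiJ in DE) are given as single values. Line 55 is DBA/2J by its labels, whereas the series' design text lists 129S1/SvImJ and no DBA/2J, and no strain contrast uses that line. Libraries of EpiSC came from a stranded kit for polyA RNA, those of DE from a kit that amplifies cDNA of low-input samples, so that kit and cell type cannot be told apart.

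T (brachyury) encodes the founding T-box factor, needed for posterior mesoderm and notochord, and lies on chromosome 17 from 8434423 to 8442496 of GRCm38 on the plus strand. Eomes, a second T-box gene, lies on chromosome 9 from 118478212 to 118486132 on the plus strand and overlaps an antisense transcript. Mixl1, a paired-type homeobox gene, lies on chromosome 1 from 180693043 to 180697034 on the minus strand. Gsc (goosecoid), the homeobox gene of the organiser, lies on chromosome 12 from 104471209 to 104473330 on the minus strand. Evx1, an even-skipped homeobox gene of the posterior streak, lies on chromosome 6 from 52313498 to 52318378 on the plus strand. The start of Evx1 overlaps the antisense gene Evx1os (52308389 to 52314832, minus strand). Since no strand setting for the counting was given, reads of Evx1 and Evx1os, and of Eomes and its antisense transcript, may be mixed.

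The stretches before the starts of T and Gsc are shown because these 2 genes moved farthest and in opposite directions between the cell types. They are RefSeq sequences of GRCm38.p6, printed 5′ to 3′ on the gene's strand up to the base before the first annotated start: chr17:8434173-8434422, plus strand, for T and chr12:104473331-104473486, minus strand, for Gsc. The stretch for Gsc is shorter, 156 bases against 250 for T, since the GENCODE start lies before the RefSeq start; motifs were searched in the full 250 bases before each RefSeq start. Capitals mark a match to a searched motif.
T: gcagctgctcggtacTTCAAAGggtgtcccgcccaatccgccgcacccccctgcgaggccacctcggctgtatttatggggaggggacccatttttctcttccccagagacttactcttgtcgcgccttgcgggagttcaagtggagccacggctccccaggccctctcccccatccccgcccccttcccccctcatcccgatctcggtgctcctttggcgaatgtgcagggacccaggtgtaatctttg
Gsc: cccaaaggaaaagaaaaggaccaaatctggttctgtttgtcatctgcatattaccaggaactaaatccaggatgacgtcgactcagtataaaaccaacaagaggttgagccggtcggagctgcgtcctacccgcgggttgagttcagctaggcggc
The capitals in the first window stand at position -235 from the start and spell TTCAAAG. They are the reverse complement of CTTTGAA, a variant of the TCF/LEF motif through which Wnt signals are read. This motif was found on either strand in 4.46% of 32851 mouse promoter windows of the same table. No searched motif was found in the Gsc window, nor in that of Eomes. Evx1 held GTCTG at position -111, the reverse complement of the short SMAD motif CAGAC, which 42.2% of the windows hold. The other searched motifs were CTTTGAT (TCF/LEF, 3.21% of windows), AATCCACA (FOXH1, 0.718%), GTCTAGAC (SMAD palindrome, 0.167%), TCACACCT (T-box, 1.12%) and TAATCC (goosecoid-type homeodomain, 6.25%). A window was at hand for 4 of the 5 genes. A match is a run of letters and was not tested as a binding site.

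EpiSC libraries held between 25.6 and 33.8 M counts and DE libraries between 23.8 and 67.7 M. The labelled cell types bore their markers: all 12 definitive endoderm markers were higher in DE, as were 37.3% of all genes tested. The 12 include Cxcr4, by whose protein the DE cells had been selected. Of 9 measured pluripotency markers, 8 were lower in DE (the exception was Sall4), as were 39.9% of all genes tested. Of 15 fibroblast markers 13 were lower in DE and 0 higher, and of 7 measured neuroectoderm markers 5 were lower and 0 higher, while 3 of 8 measured extraembryonic endoderm markers were higher and 0 lower. Summed over 15 fibroblast markers, the level ran from 96.6 to 4239 CPM in EpiSC (median 1829) and from 57.2 to 1478 CPM in DE (median 251). How much of this sum comes from feeders was not tested. Thy1 fell from a mean of 59.4 to 0.468 CPM, whereas Acta2 had 60.5 CPM in EpiSC and 72.3 CPM in DE. The 3 higher extraembryonic endoderm markers were Apoa1, Hnf4a and Amn, which reached 17.7, 18.3 and 7.40 CPM in a DE library. Ttr and Afp reached at most 0.351 and 0.479 CPM.

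T was the one of the 5 genes that fell. In EpiSC it ranged from 56.9 to 717 CPM (median 151), and in DE from 0.656 to 44.1 CPM (median 9.42). Every DE library lay below every EpiSC library. Mean levels were 249 ± 208 CPM in EpiSC and 13 ± 14.4 CPM in DE (SD, n = 17 each), and by edgeR's quasi-likelihood test the log2 fold was -4.81 ± 0.56 (SE; adjusted p = 7.49e-09). T was lower in DE in 16 of 16 lines, by a median of 42.4-fold. The size of the fall varied widely, from 1.29-fold in NOD/ShiLtJ line AC576 to 930-fold in C57BL/6J line 1. In bulk libraries such as these, fewer cells that make a transcript and less of it per cell cannot be told apart.

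Gsc rose the most. It ranged from 0.872 to 33.3 CPM in EpiSC (median 8.03) and from 110 to 752 CPM in DE (median 436), with no overlap. Means were 10.1 ± 9.26 and 447 ± 164 CPM (SD, n = 17 each), with a log2 fold of 5.90 ± 0.33 (SE; adjusted p = 5.03e-16). Every line showed the rise, from 11.3-fold in CAST/EiJ line WM078, which started highest at 33.3 CPM, to 518-fold in C57BL/6J line 5-1, which started lowest at 0.872 CPM. The median over lines was 49.1-fold.

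Mixl1 rose in all lines too. Its EpiSC range was 3.19 to 40.2 CPM (median 10.0) and its DE range 62.9 to 319 CPM (median 129), again without overlap. Mean levels were 14.6 ± 10.0 and 139 ± 72.3 CPM (SD, n = 17 each), and the log2 fold was 3.41 ± 0.34 (SE; adjusted p = 2.10e-10). By line the rise ran from 2.02-fold in WSB/EiJ line AC635 to 55.2-fold in C57BL/6J line 5-1, with a median of 10.1-fold.

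Eomes changed least. It was already plentiful in EpiSC, at 33.0 to 225 CPM (median 120), and stood at 92.5 to 276 CPM in DE (median 220). The ranges overlapped, and 7 of 17 DE libraries lay above every EpiSC library. Means were 119 ± 52.6 and 209 ± 51.7 CPM (SD, n = 17 each), with a log2 fold of 0.85 ± 0.16 (SE; adjusted p = 1.37e-05). The level was higher in DE in 16 of 16 lines, by a median of 1.77-fold, but in 5 of them by at most 1.24-fold.

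Evx1 was the lowest of the 5 genes on average in both states. It ranged from 0.0732 to 3.77 CPM in EpiSC (median 0.454) and from 0.446 to 38.5 CPM in DE (median 3.41), and 7 of 17 DE libraries lay above every EpiSC library. Means were 1.17 ± 1.23 and 6.82 ± 9.47 CPM (SD, n = 17 each), and the log2 fold was 2.22 ± 0.45 (SE; adjusted p = 5.12e-05). The rise was between 1.08-fold, in NZO/HiLtJ line AC671, and 168-fold, in PWK/PhJ line AC698. The latter rests on 2 counts in the EpiSC library, and its 95% counting interval (exact, conditional on the sum of both counts) is 46.0 to 1391-fold. Evx1os rose as well, by 1.72 ± 0.52 on the log2 scale (adjusted p = 0.00368).

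All 5 genes thus passed the test between DE and EpiSC, 4 higher and 1 lower in DE. Among the 20907 genes tested, 77.2% passed, 37.3% higher and 39.9% lower in DE, so that a call by itself sets these genes apart from few others. Their folds are to be read against a median log2 fold of -0.06 over all genes tested.

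**Figure D1:**
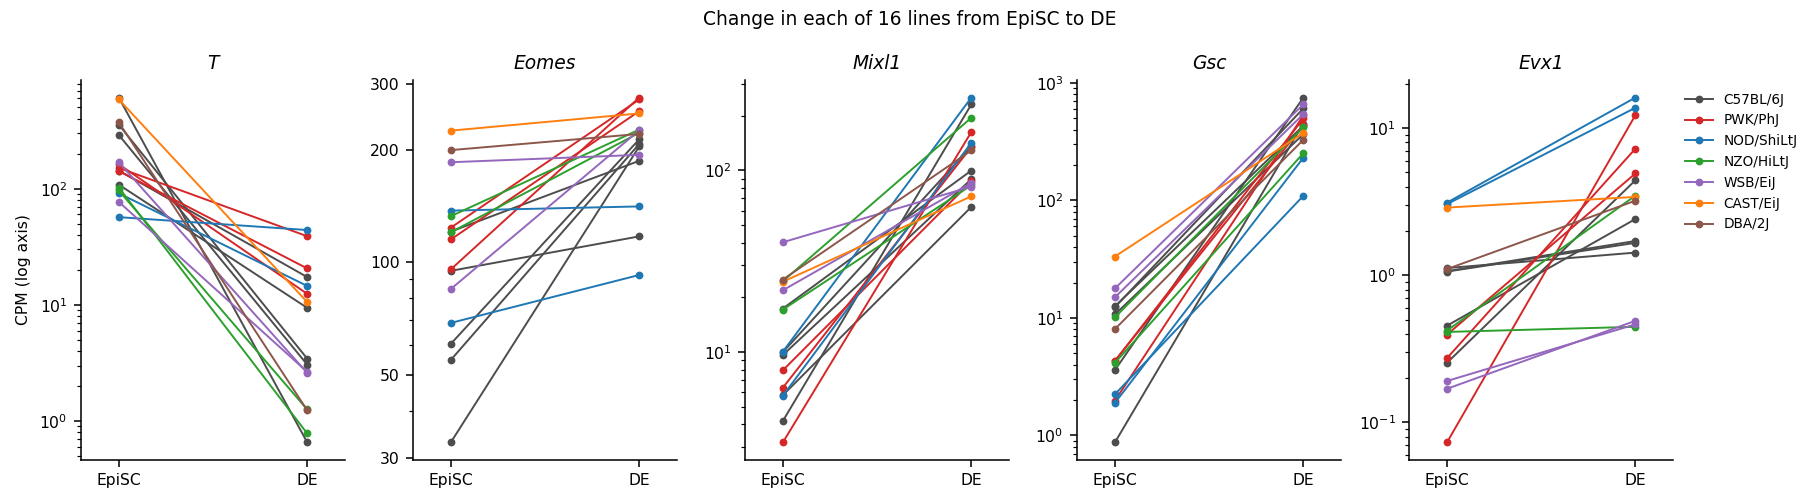
Level of each gene in EpiSC and DE (CPM, log axis), with 1 line per cell line for the 16 lines with both libraries, coloured by strain. T falls in 16 of 16 lines and the other 4 genes rise in 16 of 16, with the steepest rises in Gsc and nearly flat lines for some lines in Eomes.

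Per length of transcript, the 5 genes changed places. Divided by the exon length of each gene (from 1268 bases for Gsc to 4155 for Eomes), T was the highest of the 5 in 17 of 17 EpiSC libraries, at 108 ± 90.0 CPM per kb (SD, n = 17). It made up 65.2% of their summed CPM per kb on average (44.3 to 89.5%), and Eomes followed with 24.3% (4.50 to 41.6%). In DE, Gsc was the highest in 17 of 17 libraries, at 352 ± 129 CPM per kb (SD, n = 17) and 72.8% of the sum (44.3 to 90.3%). Mixl1 took 14% there (4.17 to 32.5%), Eomes 11.3% (4.30 to 18.4%) and T 1.43% (0.0715 to 9.76%). Neighbours in the order were often not separable: in EpiSC, Gsc stood above Mixl1 in 9 of 17 libraries, and in DE, Eomes stood above Mixl1 in 9 of 17. Evx1 was last in 17 of 17 EpiSC libraries and in 14 of 17 DE libraries, and in the other 3 it stood above T.

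**Figure D2:**
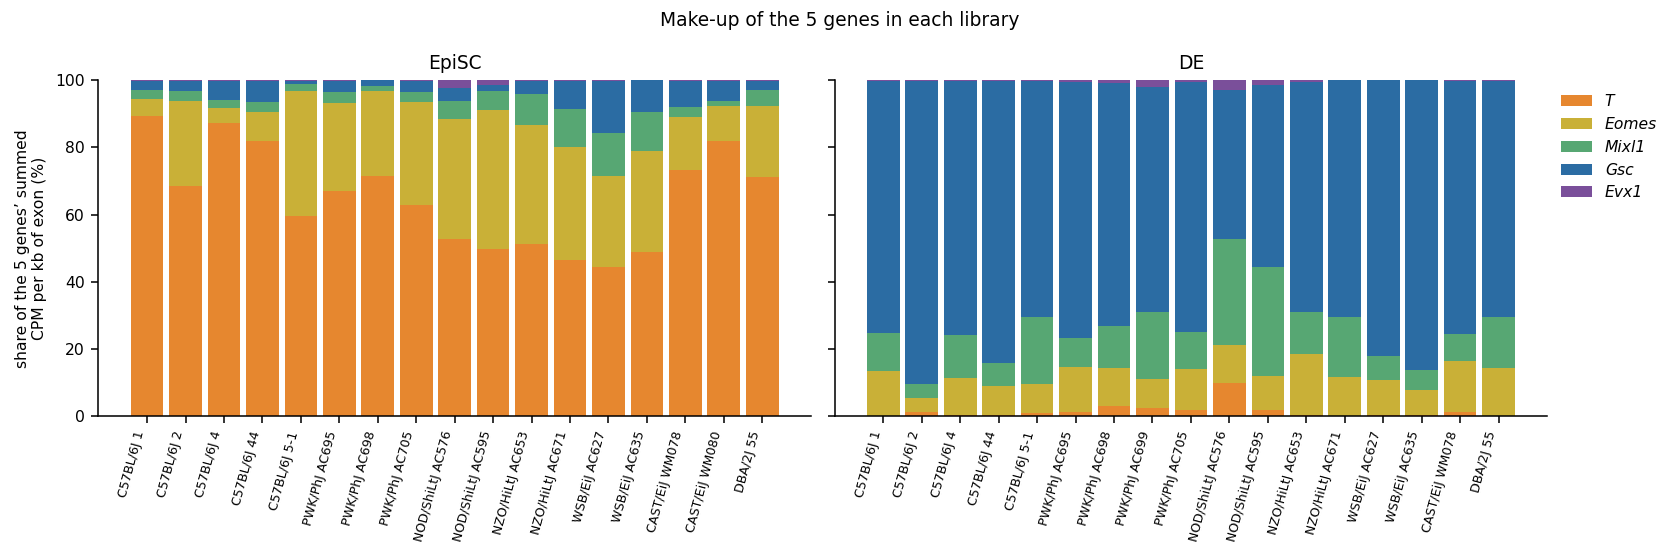
Share of each gene in the summed CPM per kb of exon of the 5 genes, 1 bar per library, for EpiSC on the left and DE on the right. T fills 44.3 to 89.5% of every EpiSC bar and Gsc 44.3 to 90.3% of every DE bar, while the NOD/ShiLtJ DE bars hold the largest shares of Mixl1.

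Other genes of the streak moved both ways. Of 20 other streak and nascent mesendoderm genes, 10 were higher and 7 lower in DE, with a median log2 fold of 0.61. Fgf8, the streak FGF, rose from 28.3 ± 16.6 to 637 ± 196 CPM (SD, n = 17 each), and Nodal from 80.3 ± 31.6 to 208 ± 35.6 CPM. Sp5, a direct Wnt target, rose from 5.23 ± 4.08 to 56.2 ± 76.8 CPM, and its DE level ran from 6.70 to 320 CPM. Nkx1-2, a marker of the posterior streak and its progeny, fell by 5.87 on the log2 scale, and Wnt3, the ligand that starts the streak, fell by 1.17.

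Of 15 anterior streak and organiser genes, 9 were higher and 4 lower in DE (median log2 fold 1.96). Cer1, an inhibitor of Nodal and BMP, rose by 6.54 ± 0.46, the Wnt inhibitor Dkk1 by 5.55 ± 0.41 and Lhx1, a partner factor in the anterior streak, by 4.30 ± 0.32 on the log2 scale. Shh, Noto and Foxj1, known from the node and notochord, were lower, with log2 folds of -1.74, -1.81 and -3.83. Of 16 measured posterior streak and nascent mesoderm genes (18 listed), 5 were higher and 4 lower (median -0.21). Among them Mesp1, the first factor of cardiac mesoderm, had a mean of 2.86 ± 8.31 CPM (SD, n = 17) in DE, with libraries from 0 to 33.7 CPM. Tbx6 and Msgn1, of presomitic mesoderm, did not exceed 2.08 and 0.233 CPM in any DE library, whereas Mesp2 rose by 3.05 ± 0.99 on the log2 scale and reached 18.6 CPM, and Hand1, of extraembryonic and lateral mesoderm, rose by 5.70 ± 0.86 and reached 54.0 CPM. The lists share some genes, among them Lhx1, Foxa2, Fst and, with the definitive endoderm markers, Cer1.

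Among 22 components and feedback targets of the Nodal and Wnt pathways, 13 were higher and 8 lower in DE (median log2 fold 0.58). Nodal feedback genes were far higher, with Lefty1 at 4736 ± 2318 CPM (SD, n = 17) in DE against 109 ± 60.2 CPM in EpiSC, and Lefty2 at 862 ± 653 against 27.9 ± 24.0 CPM. Foxh1, the partner of SMAD proteins at Nodal targets, rose by 0.87 ± 0.09, and the type I activin receptor gene Acvr1b fell by 2.19 on the log2 scale, while the type II receptor gene Acvr2b rose by 1.24 ± 0.08. On the Wnt side, Axin2, Lef1 and Wnt8a were lower, with log2 folds of -4.54, -2.49 and -5.74, while Notum rose by 1.93 ± 0.44 and Nkd1 by 0.99 ± 0.22. Wnt targets thus did not move together: Sp5, Notum and Nkd1 were higher and Axin2 and Lef1 lower, 24 h after CHIR was withdrawn.

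Relatives of the 5 genes were mostly scarce. Of 15 measured T-box genes (17 listed, T and Eomes included), 6 were higher and 8 lower (median -0.84). Besides T and Eomes, the most plentiful was Mga, which encodes a large MYC-network factor with a T-box. Mga fell by 1.78 on the log2 scale, from 297 ± 34 to 89.8 ± 19.8 CPM (SD, n = 17 each). Next came Tbx2 with 12.2 ± 12.0 CPM in DE, up from 0.755 ± 0.318 CPM. Tbr1, the closest relative of Eomes, averaged 1.82 ± 5.57 CPM in DE. Of 11 measured homeobox relatives (13 listed), 4 were higher and 4 lower (median -0.63), with Otx2, of the anterior epiblast and anterior streak, rising from 171 ± 58.2 to 652 ± 171 CPM. Gsc2, the nearest paralog of Gsc, did not exceed 0.302 CPM in DE, and Evx2 did not exceed 0.120 CPM.

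Strains differed in the EpiSC levels of 3 of the 5 genes, by an F test over the 5 strains with at least 2 lines in both states: Evx1 (adjusted p = 5.20e-04), Mixl1 (0.0110) and T (0.0452). Of all genes tested, 40% passed. Gsc (0.0747) and Eomes (0.362) did not pass. The call for T is fragile: it was lost when any of 13 of the 17 libraries was left out, and without the filter on low counts (adjusted p = 0.116). Mixl1 was lost without WSB/EiJ line AC635 (0.0529). Gsc passed with DESeq2 (adjusted p = 0.00536) and without C57BL/6J line 5-1 (0.00486). All reads were aligned to mm10, a C57BL/6J genome, and how far that lowers counts in other strains was not tested.

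Evx1 was high in EpiSC of 2 strains. It stood at 2.88 and 3.77 CPM in the CAST/EiJ lines and at 3.12 and 3.04 CPM in the NOD/ShiLtJ lines, against 0.254, 0.454, 1.06, 1.07 and 1.12 CPM in C57BL/6J. These lines did not overlap with C57BL/6J, and the log2 folds were 2.00 ± 0.46 in CAST/EiJ (adjusted p = 0.00519) and 1.98 ± 0.46 in NOD/ShiLtJ (adjusted p = 0.0151). The first was lost without WM080 (0.0590) and the second without AC576 (0.0778). The PWK/PhJ lines lay lowest together with WSB/EiJ, at 0.0732, 0.274 and 0.395 CPM, or 21 counts in 3 libraries. Their log2 fold was -1.71 ± 0.53 (adjusted p = 0.0255), although 2 of them fell within the C57BL/6J range, and it was lost without AC698 (0.105), AC705 (0.0713) or C57BL/6J line 44 (0.0517). WSB/EiJ, at 0.169 and 0.191 CPM (10 counts in all), did not pass (-2.14 ± 0.65, adjusted p = 0.0653).

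Mixl1 in EpiSC was highest in WSB/EiJ, at 21.9 and 40.2 CPM. C57BL/6J lines had 4.18, 5.79, 9.63, 10.0 and 17.4 CPM, below both. The log2 fold was 1.70 ± 0.46 (adjusted p = 0.0442), a call that was lost in 10 of 17 fits with 1 library left out and without the filter on low counts (0.132). NZO/HiLtJ lines, at 17.1 and 24.5 CPM, and the DBA/2J line, at 25.1 CPM, were in the upper range as well, and the NZO/HiLtJ contrast did not pass (1.16 ± 0.47, adjusted p = 0.177). The PWK/PhJ lines, at 3.19, 6.37 and 7.94 CPM, were among the lowest.

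CAST/EiJ EpiSC stood high for several of the genes. Its 2 lines had 27.7 and 33.3 CPM of Gsc, where the C57BL/6J lines had 0.872, 3.6, 10.7, 12.4 and 12.6 CPM (log2 fold 1.87 ± 0.66, adjusted p = 0.0482). They had 163 and 225 CPM of Eomes against 33.0, 54.8, 60.5, 94.8 and 121 CPM (1.35 ± 0.42, adjusted p = 0.0287). For both genes the CAST/EiJ lines lay above all 5 C57BL/6J lines, but the Gsc call was lost in 13 of 17 fits with 1 library left out. The Eomes call was lost without either CAST/EiJ line (0.0702 and 0.204) and without C57BL/6J line 1 (0.0514) or 44 (0.0576). Without the filter on low counts neither passed (0.0839 for Eomes and 0.131 for Gsc). T was also high in these lines, at 587 and 717 CPM, yet C57BL/6J itself spread from 108 to 609 CPM, and the difference did not pass (1.05 ± 0.51, adjusted p = 0.143). The same CAST/EiJ libraries summed to 1528 and 1718 CPM for definitive endoderm markers, against 66.8 to 638 CPM in C57BL/6J, and to 2159 and 2484 CPM for organiser genes, against 376 to 1137 CPM. Both lists hold Cer1 and Lhx1, which reached 788 and 376 CPM in an EpiSC library, so these sums are not independent. The part of cells with such markers in the CAST/EiJ differences was not tested. Summed fibroblast markers in EpiSC were 96.6 to 3182 CPM in C57BL/6J and 2799 to 3803 CPM in PWK/PhJ. They were 2114 and 2935 CPM in CAST/EiJ, 821 and 4239 CPM in NOD/ShiLtJ and 966 and 2418 CPM in WSB/EiJ. NZO/HiLtJ had 1336 and 1362 CPM and DBA/2J 1829 CPM. Of these 15 markers, 0 passed the strain F test in EpiSC. The part of feeders in the EpiSC strain differences was not tested. By strain mean, T in EpiSC was lowest in NOD/ShiLtJ (74.1 CPM), whose lines, at 56.9 and 91.4 CPM, lay below every C57BL/6J line. That contrast had an adjusted p of 0.0506 with edgeR (-2.0 ± 0.60). Both NZO/HiLtJ lines (96.5 and 102 CPM) and WSB/EiJ line AC627 (77.1 CPM) also lay below every C57BL/6J line. WSB/EiJ line AC635 did not (169 CPM). With edgeR neither contrast passed, NZO/HiLtJ at -1.59 ± 0.59 (adjusted p = 0.148) and WSB/EiJ at -1.32 ± 0.58 (0.232).

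Within the EpiSC contrasts, the share of all genes that passed was 31.6% for CAST/EiJ, 29.8% for PWK/PhJ, 12.9% for NOD/ShiLtJ, 7.41% for WSB/EiJ and 5.52% for NZO/HiLtJ. Of the 5 genes, 3 passed for CAST/EiJ, 1 each for PWK/PhJ, NOD/ShiLtJ and WSB/EiJ, and 0 for NZO/HiLtJ. For NZO/HiLtJ, 2 of the 5, T and Mixl1, had an unadjusted p under 0.05 with edgeR, and DESeq2 called 1, T. The shares of all genes are edgeR's, and DESeq2 called more genes, 8934 against 7152 in the strain F test in EpiSC.

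**Figure D3:**
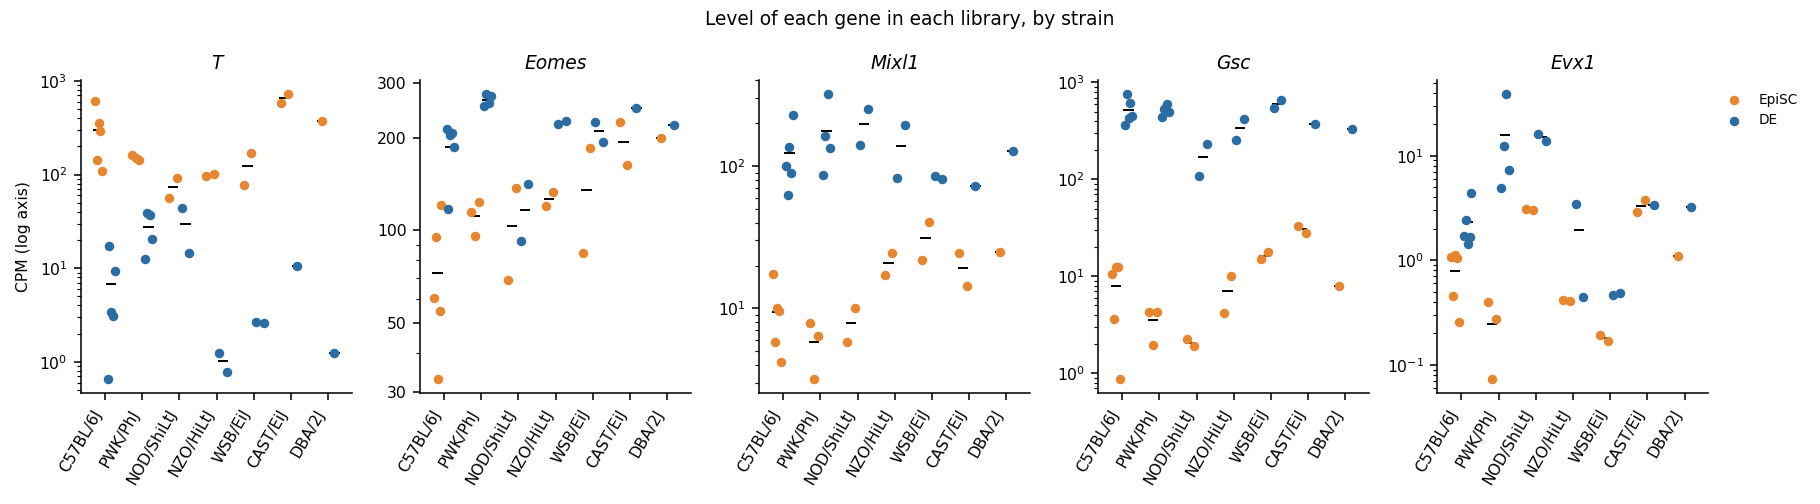
CPM of each gene (log axis) in every library by strain, EpiSC in orange and DE in blue, with short bars at the mean of each group. EpiSC and DE points are apart for T, Mixl1 and Gsc and mix for Eomes and Evx1, and T in DE is highest in PWK/PhJ and NOD/ShiLtJ lines.

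In DE, 4 of the 5 genes differed between strains: Evx1 (adjusted p = 0.00257), T (0.00985), Gsc (0.0115) and Eomes (0.0122), where 22.3% of all genes passed. Mixl1 did not (0.527, and 0.454 with DESeq2). It passed only without the filter on low counts (0.00287), a fit in which the adjusted p for T fell from 0.00985 to 1.53e-29. Mixl1 spread widely between lines of a strain, from 62.9 to 230 CPM in C57BL/6J and from 87.0 to 319 CPM in PWK/PhJ. The calls for Gsc and Eomes rest on NOD/ShiLtJ, and in each case on line AC576. Without that library their adjusted p-values were 0.102 and 0.111, and without both NOD/ShiLtJ libraries 0.325 and 0.237. Evx1 and T kept theirs without both (0.00442 and 0.0136).

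The level of T in DE differed widely between lines. NZO/HiLtJ lines had 0.781 and 1.26 CPM, the DBA/2J line 1.24 CPM and WSB/EiJ lines 2.59 and 2.65 CPM. The C57BL/6J lines had 0.656, 3.06, 3.44, 9.42 and 17.3 CPM. PWK/PhJ lines had 12.4, 20.6, 36.9 and 39.0 CPM, NOD/ShiLtJ lines 14.5 and 44.1 CPM and the CAST/EiJ line 10.6 CPM. The PWK/PhJ and NOD/ShiLtJ lines thus overlapped only with the highest C57BL/6J line. Against C57BL/6J none of these differences passed singly with edgeR, with log2 folds of 1.88 ± 0.67 in PWK/PhJ (adjusted p = 0.0666), 2.04 ± 0.77 in NOD/ShiLtJ (0.109) and -2.78 ± 1.00 in NZO/HiLtJ (0.252). With DESeq2, T passed for PWK/PhJ (adjusted p = 0.0216) and NZO/HiLtJ (0.0185) but not for NOD/ShiLtJ (0.0667).

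Evx1 in DE followed the same strains. PWK/PhJ lines had 4.93, 7.26, 12.3 and 38.5 CPM and NOD/ShiLtJ lines 13.8 and 16.1 CPM. In C57BL/6J it was 1.43, 1.66, 1.71, 2.41 and 4.43 CPM, below all of these. The log2 folds were 2.64 ± 0.61 in PWK/PhJ (adjusted p = 0.00749) and 2.60 ± 0.69 in NOD/ShiLtJ (adjusted p = 0.0240). The latter was lost without AC576 (0.203), AC595 (0.0607) or C57BL/6J line 1, 4 or 44 (0.0527 to 0.0538). The WSB/EiJ lines had the least, 0.464 and 0.491 CPM, next to NZO/HiLtJ line AC671 at 0.446 CPM, and did not pass (-2.30 ± 0.88, adjusted p = 0.263). Evx1os ran alongside, with 9.15 and 9.60 CPM in NOD/ShiLtJ and 2 counts in all in the WSB/EiJ libraries, against 385 in the 5 C57BL/6J libraries.

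Gsc and Eomes were lowest in NOD/ShiLtJ DE. Gsc stood at 110 and 231 CPM, below the C57BL/6J lines at 367, 433, 451, 608 and 752 CPM (log2 fold -1.73 ± 0.35, adjusted p = 0.00509). Eomes stood at 92.5 and 141 CPM, while 4 of the C57BL/6J lines had 187, 204, 207 and 213 CPM and line 2 had 117 CPM (-0.77 ± 0.21, adjusted p = 0.0288). Line AC576 was the lowest of all 17 DE libraries for both genes. Without it both calls were lost (0.132 for Gsc and 0.406 for Eomes), and that for Eomes also without C57BL/6J line 1 (0.0526). Eomes was highest in PWK/PhJ, at 254, 258, 272 and 276 CPM, above all C57BL/6J lines, but this did not pass with edgeR (0.41 ± 0.16, adjusted p = 0.0947) and did with DESeq2 (0.0451).

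The NOD/ShiLtJ DE libraries differed in their cell markers as well. Their summed fibroblast markers were 1331 and 1478 CPM, against 57.2 to 252 CPM in C57BL/6J and 251 to 504 CPM in PWK/PhJ. Elsewhere this sum was 781 CPM in CAST/EiJ, 119 and 415 CPM in WSB/EiJ, 87.3 and 246 CPM in NZO/HiLtJ and 86.5 CPM in DBA/2J. Summed definitive endoderm markers were 1898 and 4932 CPM, against 8163 to 15500 CPM in C57BL/6J and 6224 to 12651 CPM in PWK/PhJ. By mean DE level Cer1 was the largest part of that list (5797 CPM). In AC595, Sox17 (929 CPM) and Foxa2 (73.9 CPM) lay within the C57BL/6J ranges, 863 to 1366 and 71.1 to 111 CPM. In AC576 both lay below those ranges, at 375 and 25.9 CPM. Of the 15 fibroblast markers, 8 were found in every DE library (Col1a1, Col1a2, Col3a1, Col6a3, Postn, Pdgfrb, Fbn1 and Acta2) and 7 were at 0 in at least 1 (Dcn, Lum, Prrx1, Thy1, Fap, Twist2 and Tagln). Summed posterior mesoderm genes were 173 and 180 CPM in NOD/ShiLtJ and 119 to 189 CPM in PWK/PhJ, against 54.9 to 108 CPM in C57BL/6J. They were 116 and 144 CPM in WSB/EiJ, 52.5 and 272 CPM in NZO/HiLtJ, 64.7 CPM in CAST/EiJ and 74.5 CPM in DBA/2J. Summed neuroectoderm markers were 42.2 and 157 CPM in NOD/ShiLtJ and 22.2 to 69.2 CPM in PWK/PhJ, against 20.8 to 37.9 CPM in C57BL/6J. They were 40.6 and 63.8 CPM in NZO/HiLtJ, 24.3 and 29.0 CPM in WSB/EiJ, 35.3 CPM in CAST/EiJ and 34.9 CPM in DBA/2J. High posterior mesoderm and neuroectoderm sums were thus not particular to NOD/ShiLtJ and PWK/PhJ. Summed extraembryonic endoderm markers were 1294 and 2261 CPM in NOD/ShiLtJ and 726 to 951 CPM in PWK/PhJ, against 358 to 614 CPM in C57BL/6J. They were 1081 CPM in CAST/EiJ, 592 and 668 CPM in NZO/HiLtJ, 478 and 674 CPM in WSB/EiJ and 316 CPM in DBA/2J. By level that list is mostly Sparc, which fibroblasts also make. The part of such cells in the NOD/ShiLtJ and PWK/PhJ differences of the 5 genes was not tested.

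Of all genes, 17.1% passed for PWK/PhJ in DE, 11.4% for NOD/ShiLtJ, 2.28% for WSB/EiJ and 1.41% for NZO/HiLtJ. Of the 5 genes, 1 passed for PWK/PhJ, 3 for NOD/ShiLtJ and 0 for WSB/EiJ and NZO/HiLtJ with edgeR. DESeq2 called 3 for PWK/PhJ (Evx1, T and Eomes) and 3 for NOD/ShiLtJ. The shares of all genes above are edgeR's, and DESeq2 called more genes, 6298 against 4294 in the strain F test in DE. For WSB/EiJ and for NZO/HiLtJ, 1 of the 5 had an unadjusted p under 0.05 with edgeR: Evx1 in WSB/EiJ (0.0201) and T in NZO/HiLtJ (0.0144). DESeq2 called each of these 2.

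**Figure D4:**
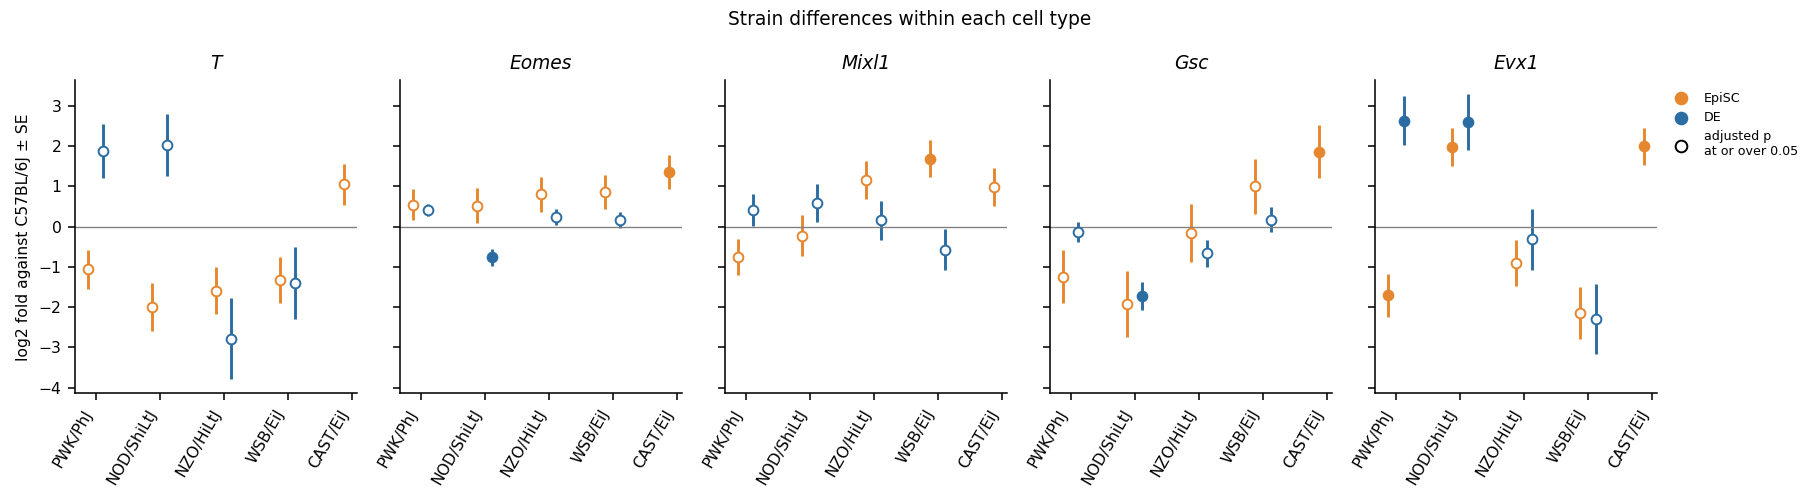
Log2 fold of each gene against C57BL/6J, with its SE as a bar, by strain for EpiSC (orange) and DE (blue); filled points have an adjusted p under 0.05. T lies below 0 in EpiSC and above 0 in DE in both PWK/PhJ and NOD/ShiLtJ, as does Evx1 in PWK/PhJ. Gsc in NOD/ShiLtJ lies below 0 in both states, with an edgeR adjusted p of 0.136 in EpiSC.

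The change from EpiSC to DE itself differed between strains for T (adjusted p = 0.0190), Evx1 (0.0182) and Mixl1 (0.0327), in a test of strain by cell type that 10.7% of all genes passed. With the cell line as a block, on the lines with both libraries, none of the 3 passed (0.175, 0.214 and 0.0964), and neither did Eomes and Gsc in either fit, although 3 of the 5 had an unadjusted p under 0.05 there. T was also lost without AC576 in DE (0.0652) or in EpiSC (0.0622), Evx1 without EpiSC line AC705 (0.0654) or AC698 (0.0839), and Mixl1 in 11 of 34 fits with 1 library left out. Without both NOD/ShiLtJ DE libraries T had an adjusted p of 0.0816. In log2 CPM, T changed by -9.86, -6.69, -6.57, -3.52 and -3.05 in the C57BL/6J lines, by -3.71, -2.79 and -1.95 in PWK/PhJ and by -2.65 and -0.369 in NOD/ShiLtJ. Relative to C57BL/6J the fitted change was 2.96 ± 0.92 higher in PWK/PhJ (adjusted p = 0.0548) and 4.01 ± 1.11 higher in NOD/ShiLtJ (adjusted p = 0.0304). The fit also took in PWK/PhJ DE line AC699 (36.9 CPM of T), which had no EpiSC library. The 2 shallowest of the C57BL/6J falls, in lines 2 and 5-1, overlap with PWK/PhJ.

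Evx1 rose by 7.39, 4.73 and 3.64 on the log2 scale in the PWK/PhJ lines and by 4.12, 2.41, 0.683, 0.649 and 0.349 in C57BL/6J. The fitted change was 4.39 ± 0.91 higher in PWK/PhJ (adjusted p = 0.00343). That fit also took in PWK/PhJ DE line AC699, which had no EpiSC library and the highest Evx1 of all DE libraries (38.5 CPM). For Mixl1 the small rises were in WSB/EiJ, 1.02 and 1.96, where the C57BL/6J lines rose by 2.52 to 5.79. That difference did not pass singly (-2.26 ± 0.75, adjusted p = 0.233). Of all genes, 6.67% passed such a contrast for PWK/PhJ, 6.96% for NOD/ShiLtJ, 0.871% for WSB/EiJ and 0.407% for NZO/HiLtJ; of the 5, Evx1 passed for PWK/PhJ, T for NOD/ShiLtJ and none for WSB/EiJ or NZO/HiLtJ. In WSB/EiJ 1 of the 5, Mixl1, had an unadjusted p under 0.05 with edgeR, and in NZO/HiLtJ 0 did; DESeq2 called 0 in both. With the cell line as a block none of these contrasts passed for any of the 5 genes, with 5 unadjusted p-values under 0.05 among 20.

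Across lines, some of the 5 genes varied together. Correlations of log2 CPM were computed for 10 pairs in each cell type (20 in all, permutation tests with 100000 resamples). In EpiSC, Mixl1 and Gsc were related, with Pearson's r = 0.751 (permutation p = 6.50e-04, adjusted 0.00650) and Spearman's rho = 0.713 (permutation p = 0.00192, adjusted 0.0192). The value was 0.707 without the 2 lines farthest from the median of Mixl1 and 0.762 within strains. T and Gsc in EpiSC had r = 0.646 (permutation p = 0.00506, adjusted 0.0337) and rho = 0.569 (permutation p = 0.0189, adjusted 0.126), with 0.583 (adjusted permutation p = 0.151) without the 2 farthest lines and 0.732 within strains. The relation of T and Gsc therefore did not pass without them (unadjusted permutation p = 0.0227) or within strains (adjusted permutation p = 0.108).

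In DE, T and Evx1 were related, with r = 0.764 (permutation p = 4.60e-04, adjusted 0.00650) and rho = 0.782 (permutation p = 4.00e-04, adjusted 0.00800). It was 0.738 without the 2 farthest lines. Within strains r was 0.476 (adjusted permutation p = 0.0949), so it did not pass between lines of the same strain. None of the other 17 pairs passed across all lines, among them Eomes and Gsc in DE (r = 0.507, permutation p = 0.0420, adjusted 0.187; rho = 0.157, permutation p = 0.544, adjusted 0.808), with r = 0.478 without the 2 farthest lines and -0.187 within strains. Within strains T and Mixl1 in EpiSC did pass, with r = 0.809 (adjusted permutation p = 0.0363), as did Mixl1 and Gsc in EpiSC (0.0363), while across all EpiSC lines T and Mixl1 had r = 0.297 (permutation p = 0.245, adjusted 0.489) and rho = 0.245 (permutation p = 0.344, adjusted 0.765).

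How much of a gene a line had as EpiSC did not, over the 16 lines with both libraries, go with how much it had as DE. For the same gene before and after, r ran from -0.359 for T (permutation p = 0.171, adjusted 0.294; rho = -0.312, permutation p = 0.240, adjusted 0.652) to 0.317 for Evx1 (permutation p = 0.230, adjusted 0.294; rho = 0.229, permutation p = 0.391, adjusted 0.652), and none of the 5 passed. Without the 2 farthest lines these were -0.322 and -0.0563. Within strains T gave r = -0.829 (adjusted permutation p = 0.0317). C57BL/6J shows that order: line 1 had the most T as EpiSC (609 CPM) and the least as DE (0.656 CPM), and lines 2 and 5-1 had the least as EpiSC (143 and 108 CPM) and the most as DE (17.3 and 9.42 CPM). Evx1 within strains gave -0.602 (adjusted permutation p = 0.0294).

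The 5 genes were also set against Sox17 and Foxa2, factors of definitive endoderm, and Pou5f1, a core pluripotency factor, in the 17 DE libraries (15 relations). Gsc followed Sox17 closely, with r = 0.897 (permutation p = 1.00e-05, the smallest these permutations can give, adjusted 1.50e-04) and rho = 0.922 (permutation p = 3.00e-05, adjusted 4.50e-04). It was 0.891 without the 2 farthest lines and 0.885 within strains (adjusted permutation p = 0.0873). Sox17 ran from 375 CPM in NOD/ShiLtJ line AC576, where Gsc was 110 CPM, to 1366 CPM in C57BL/6J line 44, where Gsc was 608 CPM. Gsc and Foxa2 had r = 0.871 (permutation p = 5.00e-05, adjusted 3.75e-04) and rho = 0.770 (permutation p = 4.90e-04, adjusted 0.00260), with 0.715 without the 2 farthest lines and 0.766 within strains (adjusted permutation p = 0.230).

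T went with the level of Pou5f1, with r = 0.785 (permutation p = 1.00e-04, adjusted 5.00e-04) and rho = 0.767 (permutation p = 5.20e-04, adjusted 0.00260). It was 0.791 without the 2 farthest lines and 0.720 within strains (adjusted permutation p = 0.230). Pou5f1 was highest in the NOD/ShiLtJ lines, 26.6 and 90.4 CPM, and in PWK/PhJ it was 4.28, 8.58, 12.9 and 20.5 CPM. Elsewhere it did not exceed 4.00 CPM except in C57BL/6J line 2, at 11.5 CPM, which also had the most T of its strain. Evx1 and Pou5f1 had r = 0.698 (permutation p = 0.00164, adjusted 0.00615) and rho = 0.657 (permutation p = 0.00536, adjusted 0.0201), with 0.687 without the 2 farthest lines and 0.324 within strains.

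Eomes was related to Foxa2 (r = 0.597, permutation p = 0.0177, adjusted 0.0467; rho = 0.525, permutation p = 0.0326, adjusted 0.0978) and inversely to Pou5f1 (r = -0.564, permutation p = 0.0187, adjusted 0.0467; rho = 0.0588, permutation p = 0.821, adjusted 0.948). Without the 2 farthest lines these fell to 0.410 and -0.0762, so both rest on those lines. Within strains they were 0.0874 and -0.837, neither past the threshold (adjusted permutation p = 0.931 and 0.230). Mixl1 passed with none of the 3 genes.

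**Figure D5:**
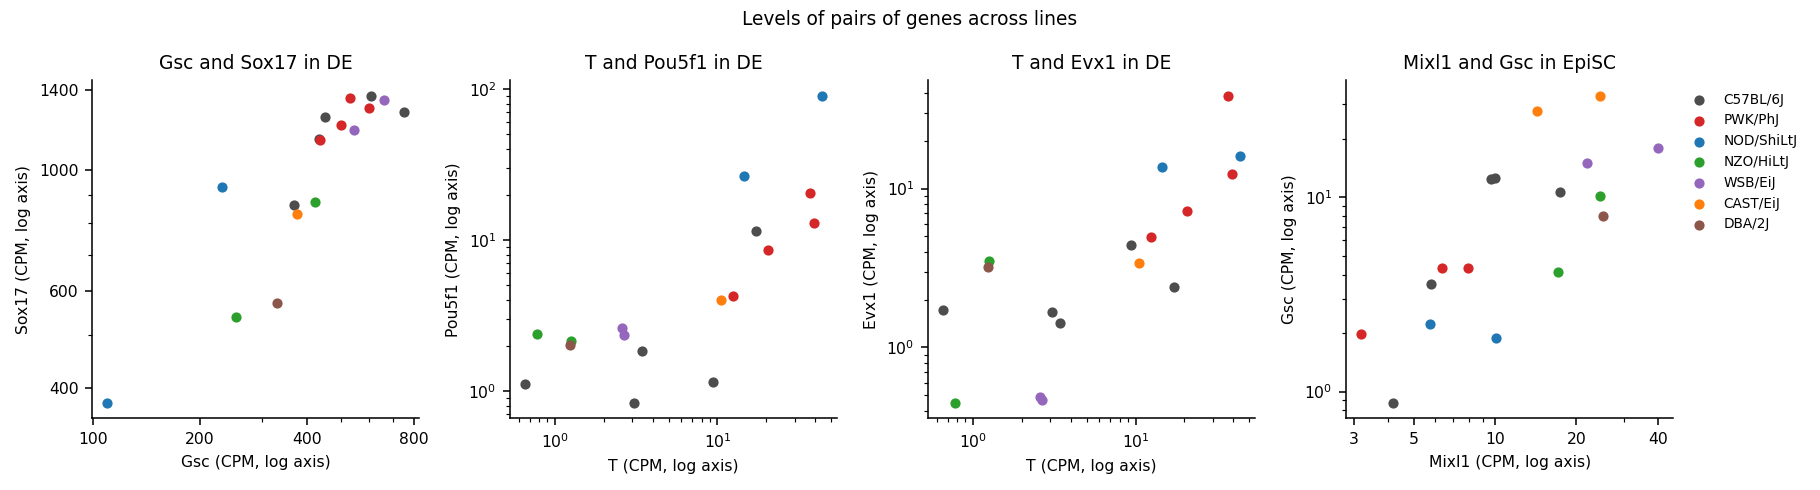
Levels of 4 pairs of genes across lines (CPM, log axes), 1 point per library coloured by strain: Gsc and Sox17, T and Pou5f1, and T and Evx1 in DE, and Mixl1 and Gsc in EpiSC. Gsc and Sox17 rise together from NOD/ShiLtJ line AC576 at the lower left, and the NOD/ShiLtJ and PWK/PhJ lines fill the upper right in both plots of T.

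All well-measured genes were ranked by their likeness to each of the 5 genes. In EpiSC, the 5 genes most like Gsc across the 17 libraries were Lhx1 (r = 0.966), Hes1 (0.952), Cer1 (0.95), Cyp26a1 (0.936) and Fgd6 (0.935), the first being a partner factor of the anterior streak, Hes1 a Notch target and Cyp26a1 a retinoic acid-degrading enzyme. In DE, Gsc was most like Hes1 (0.933) and Sox17 (0.897), followed by Tle6 (0.891), Fkbp11 (0.886) and Pcsk1n (0.872). Hes1 was thus among the nearest to Gsc in both states. The ranking took in 9423 genes in EpiSC and 9005 in DE.

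Nearest to T in EpiSC were Dgkk (0.959), a diacylglycerol kinase, Abr (0.939), Ttc8 (0.918), Eml1 (0.901) and Kif26b (0.891). In DE they were Iqgap2 (0.899), Ghr (0.880), the growth hormone receptor, Npdc1 (0.866), Plat (0.866) and Ggh (0.865). No gene was in both sets, but sets of 5 out of 9422 and 9006 ranked genes seldom share one by chance, so nothing follows from this. For Evx1 in DE they were Mgmt (0.891), Dyrk3 (0.888), Pdgfa (0.886), a growth factor ligand, Tspan3 (0.883) and Cpt1c (0.872). For Eomes in DE they were Prex1 (0.909), Tmtc4 (0.895), Rad54b (0.891), Ice2 (0.881) and Rgs8 (0.879), and for Mixl1 in DE Ino80e (0.878), Ccdc88a (0.813), Rcc1 (0.812), Gnb4 (0.797) and Tmem161a (0.795). In EpiSC, Eomes was nearest to Tarbp2 (0.889) and Mixl1 to B4gat1 (0.840), with Lgr5, a receptor of the Wnt pathway, close behind (0.819). These values describe 17 libraries that share strains and kit, and the highest of so many correlations is high by selection.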

How the data were processed

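The deposited tables hold whole-number counts per gene, which the authors made from their reads. The submitters' processing notes name STAR 2.4, HTSeq 0.6.1, DESeq2 (no version) and the mm10 genome. For annotation and strand setting nothing is given in the sources used here. CPM was computed from each count and its library's total. Reads were not collapsed to molecules, so counting intervals cover counting error only.

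A gene was tested if 3 or more libraries had 10 or more counts. The main test was edgeR 4.0.16 (R 4.3.3) with TMM scaling and the robust quasi-likelihood F test. P-values were adjusted by Benjamini-Hochberg over all genes tested (threshold 0.05). DE was compared with EpiSC on 34 libraries with strain as a term, treating the libraries of 1 line as independent. Strains were compared within a cell type on its 17 libraries, each a separate line, and the F tests covered the 5 strains with at least 2 lines in both states. SE is the absolute log2 fold over the root of F. The fits were tested on simulated data. Correlations used log2 CPM (prior count 2) and permutation tests with 100000 resamples. Alternatives were RLE scaling, DESeq2 1.42.0, no filter, no strain term, each library left out, a prior count of 0.5 for correlations, and the cell line as a block. Lines pair the libraries by origin: deviations from the group means had a median r of 0.038 over 14 lines (-0.0038 to 0.179, 6 above 0.1). In strains with 2 lines the deviations mirror each other, so both lines have the same r by construction. The WSB/EiJ value (0.167) therefore stands for both of its lines among the 6.

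The 5 genes, the gene lists and the tests were chosen with earlier results of these data known. Named genes are the 5, members of 11 gene lists that are family relatives or pathway genes, and, for each of the 5 genes, the 5 with the highest r among genes of mean log2 CPM of at least 3, predicted genes passed over. Genes named from the streak, organiser and marker lists were picked after their values were seen. Evx1 was too low in EpiSC for that ranking. No 2 libraries of a strain and cell type agreed within sampling noise (lowest chi-square per degree of freedom 6.57 in EpiSC, 31.5 in DE). Positions and exon lengths are from GENCODE M21 (GRCm38).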

Additional observations from a re-analysis of the deposited data

Results flagged for a closer look

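Eomes in C57BL/6J DE had 1 line far from the other 4. Line 2 stood at 117 CPM and the others at 187 to 213 CPM, and the gap to its nearest neighbour was 0.724 of the whole range, over the limit for 5 lines. Of 15 groups of 4 or 5 libraries examined this was the only one, and chance marks about 1 in 20 groups. The same library had the most Gsc (752 CPM) and the most T (17.3 CPM) of the C57BL/6J DE lines and the least Mixl1 (62.9 CPM).

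The change from EpiSC to DE differed between strains for T (adjusted p = 0.0190), Mixl1 (adjusted p = 0.0327) and Evx1 (adjusted p = 0.0182), by edgeR's test of strain by cell type. With the cell line as a block (paired libraries) none of the 3 passed (0.175, 0.0964 and 0.214).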

How the results depend on the processing

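Between DE and EpiSC, all 5 genes kept their direction and call under RLE scaling, DESeq2, no filter, no strain term, the cell line block, each library left out and, added after seeing the data, without both NOD/ShiLtJ DE libraries. The strain results depend more on the processing, and the cause was not tested. With the cell line as a block (paired libraries), 0 of the 5 genes passed the test of strain by cell type instead of 3. Without a filter 5 passed, and the adjusted p for T fell to 4.82e-70, against 0.0190 in the main fit and 6.29e-04 with DESeq2. The cause of that drop was not tested. Leaving out 1 library gave 1 to 3, with 1 left without EpiSC line AC576, AC698 or AC705. Strain F tests with 1 library left out called 2 to 4 genes in EpiSC and 2 to 4 in DE, the 2 in DE being without AC576. Without both NOD/ShiLtJ DE libraries 2 passed in DE. Contrasts with C57BL/6J gave 6 calls in EpiSC, but 3 without a filter, 10 with DESeq2 and 3 to 10 with 1 library left out (10 without line 5-1, 3 without line 44, WM080 or AC705). In DE they gave 4, but 9 without a filter, 8 with DESeq2, 1 without both NOD/ShiLtJ libraries and 1 to 6 with 1 left out (1 without AC576, 2 without line 1). Of all genes, 2227 passed the test of strain by cell type, but 4155 without a filter, 3849 with DESeq2, 1104 with the block, 1420 without both NOD/ShiLtJ DE libraries and 1452 without EpiSC line AC576. The strain F test in DE gave 4294, but 6298 with DESeq2 and 6782 without a filter. In EpiSC it gave 7152, but 8934 with DESeq2 and 6501 without a filter. Within strains, 2 of the 5 relations of EpiSC to DE levels passed instead of 0, and 0 of the 15 with Sox17, Foxa2 and Pou5f1 instead of 6. The relation of EpiSC to DE level changed sign within strains for Eomes (r = -0.290) and Evx1 (-0.602), and for Evx1 without the 2 farthest lines (-0.0563). Depth limits Evx1 most, with 2 counts in its lowest library.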
